A study of Mus musculus with 12 samples.

Results

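The genes described here are the 10 that carry glucose into the cell and through the first committed step of glycolysis: Slc2a1, Hk1, Hk2, Gpi1, Pfkl, Pfkm, Pfkp, Pfkfb2, Pfkfb3 and Pfkfb4. They were taken by gene symbol from a table of 45777 genes. The rule used no measured value, but the set was proposed with earlier results of these data in view, so its counts below are a description and no blind test. All 10 were present once in the table and all 10 passed the filter on low counts that left 15932 genes for testing. The lowest count of any of them in any library was 296, for Pfkfb4, and the highest was 26898, for Pfkl.

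Messenger RNA was sequenced from mpkCCDc11 cells, epithelial cells of wild-type genotype that derive from the cortical collecting duct of the mouse kidney. The cells were grown on permeable supports, deprived of serum and hormones, and treated with siRNA, which was either a control or directed at TAZ (gene Wwtr1), a coactivator of the Hippo pathway. They then received vehicle or dDAVP, a vasopressin analogue selective for the V2 receptor, at 1e-09 M on the basolateral side. The 4 groups, named below control vehicle, control dDAVP, TAZ vehicle and TAZ dDAVP, had 3 libraries each. The line is a single clone. Several durations of dDAVP exposure are given for the series, and none is assigned to a library. Whether replicates are separate cultures is not stated either, and the p-values therefore reflect spread among libraries that may in part be technical. The series was designed to follow the control of aquaporin-2 by TAZ, and the comparisons below ask how the first steps of glycolysis stood in the same 4 groups.

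Slc2a1 encodes the glucose carrier GLUT1. Hexokinases (Hk1, Hk2) trap glucose as glucose 6-phosphate, and glucose 6-phosphate isomerase (Gpi1) turns that into fructose 6-phosphate. Phosphofructokinase, assembled from liver-type (Pfkl), muscle-type (Pfkm) and platelet-type (Pfkp) subunits, then commits the sugar to glycolysis. Its main allosteric activator, fructose 2,6-bisphosphate, is made and broken down by the bifunctional PFKFB enzymes, of which PFKFB3 has the most one-sided kinase activity. HK1 is generally regarded as the constitutive hexokinase and HK2 as the inducible one. Several of these genes are textbook targets of hypoxia-inducible factors (HIF).

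Library totals ran from 45095331 to 61725339 counts. Wwtr1, the siRNA target, was lowered but far from absent: 179, 186 and 177 CPM, counts scaled to the normalised library total, in control vehicle, 119, 114 and 116 in TAZ vehicle, 174, 161 and 164 in control dDAVP and 108, 127 and 109 in TAZ dDAVP. The log2 fold changes of Wwtr1 with the TAZ siRNA were -0.63 ± 0.05 (SE; edgeR adjusted p = 4e-06) with vehicle and -0.54 ± 0.05 (adjusted p = 5.54e-06) with dDAVP. All 11 principal cell markers examined had counts in some library, and 9 passed the low-count filter. Their summed level was 469 to 531 TPM, the level per transcript length, in TAZ vehicle against 526 to 563 in control vehicle, 563 to 638 in control dDAVP and 532 to 561 in TAZ dDAVP. Of the 8 intercalated cell markers, 4 had a count in any library (Atp6v1b1, Slc4a1, Slc4a9 and Atp6v0d2) and 2 passed the low-count filter. Foxi1, Slc26a4, Kit and Atp6v1g3 were at 0 in every group. The 8 together reached 126 to 131 TPM in control vehicle, 111 to 125 in TAZ vehicle, 126 to 138 in control dDAVP and 125 to 141 in TAZ dDAVP. Of the 11 fibroblast, endothelial and immune markers, 7 had a count in any library (Col1a1, Pdgfrb, Pecam1, Cdh5, Ptprc, Cd68 and Cd74) and 6 passed the low-count filter. Col1a2, Col3a1, Kdr and Adgre1 were at 0 in every group, and the 11 together reached 10.6 to 12.9 TPM. The 5 of the thick limb and distal tubule reached at most 0.704 TPM, with Slc12a1 and Pvalb at 0. The 7 proximal tubule markers together were at 31.3 to 33.8 TPM in control vehicle, 24.4 to 27.4 in TAZ vehicle, 25.7 to 29.1 in control dDAVP and 21.5 to 23.9 in TAZ dDAVP, with Slc22a6, Slc22a8 and Slc27a2 at 0 in every group. Nearly all of that sum was Lrp2 (32.1 TPM in control vehicle and 25.5 in TAZ vehicle), named here after its values were seen. The part of these marker differences in the results below was not tested.

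Because the enzymes of each step come in forms that behaved differently, the 250 bases upstream of the start of the most counted transcript model are shown for 1 pair of each family (RefSeq, GRCm38.p6, read 5′ to 3′ on the gene's strand). Capitals mark ACGTG or its reverse complement CACGT, a form of the core letters of the element that HIF factors recognise. The other form, GCGTG, was not searched for or marked, and it stands in windows below, Hk1 and Pfkl among them. The windows lie at chr10:62340422-62340671 (minus strand) for Hk1, chr6:82774455-82774704 (minus) for Hk2, chr10:78009808-78010057 (minus) for Pfkl, chr15:98108221-98108470 (plus) for Pfkm, chr1:130715822-130716071 (minus) for Pfkfb2 and chr2:11502091-11502340 (minus) for Pfkfb3.
Hk1: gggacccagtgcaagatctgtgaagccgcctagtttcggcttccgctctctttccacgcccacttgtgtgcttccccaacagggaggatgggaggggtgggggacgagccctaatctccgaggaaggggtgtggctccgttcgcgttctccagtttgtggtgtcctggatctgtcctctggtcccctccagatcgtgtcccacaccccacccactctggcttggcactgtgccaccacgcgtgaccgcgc
Hk2: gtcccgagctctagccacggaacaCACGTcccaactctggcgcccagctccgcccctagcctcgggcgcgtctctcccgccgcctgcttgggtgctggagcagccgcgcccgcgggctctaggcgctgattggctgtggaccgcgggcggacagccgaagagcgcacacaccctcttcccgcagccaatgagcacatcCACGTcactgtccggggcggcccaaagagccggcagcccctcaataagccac
Pfkl: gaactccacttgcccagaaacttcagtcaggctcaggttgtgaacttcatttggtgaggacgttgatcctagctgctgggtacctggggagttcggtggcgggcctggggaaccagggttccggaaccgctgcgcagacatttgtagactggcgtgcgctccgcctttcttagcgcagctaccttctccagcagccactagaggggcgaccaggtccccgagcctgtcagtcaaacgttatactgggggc
Pfkm: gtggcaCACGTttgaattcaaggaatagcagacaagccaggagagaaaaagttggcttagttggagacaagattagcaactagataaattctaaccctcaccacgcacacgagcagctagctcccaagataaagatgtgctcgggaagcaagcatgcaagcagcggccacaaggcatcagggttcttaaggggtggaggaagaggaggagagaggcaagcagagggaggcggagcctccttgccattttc
Pfkfb2: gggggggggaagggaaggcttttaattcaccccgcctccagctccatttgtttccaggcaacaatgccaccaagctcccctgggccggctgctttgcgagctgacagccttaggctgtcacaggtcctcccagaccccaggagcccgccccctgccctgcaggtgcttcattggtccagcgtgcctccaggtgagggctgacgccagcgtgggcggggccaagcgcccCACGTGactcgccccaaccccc
Pfkfb3: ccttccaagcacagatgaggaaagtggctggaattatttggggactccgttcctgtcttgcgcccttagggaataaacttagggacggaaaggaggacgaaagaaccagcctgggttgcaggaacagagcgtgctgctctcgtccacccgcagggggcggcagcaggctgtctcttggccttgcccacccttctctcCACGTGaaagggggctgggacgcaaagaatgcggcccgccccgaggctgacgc
The Hk2 window held 2 matches to ACGTG or CACGT, with their first base 226 and 52 bases before the start. The Pfkm window held 1 match at 244 bases, and the Hk1 and Pfkl windows held no such match. The capitals in Pfkfb2 and Pfkfb3 are the palindrome CACGTG, which matches on both strands in overlapping positions, 21 to 22 bases before the start of Pfkfb2 and 52 to 53 bases before that of Pfkfb3. A window was found for 9 of the 10 genes, the exception being Pfkp, and 5 of the 9 held ACGTG on either strand (Slc2a1 was the fifth, at 36 bases), where 16.6% of 32851 RefSeq promoter windows of the same length did. ACGTG on either strand was in 3 of the 5 genes with a window that fell with the TAZ siRNA (Slc2a1, Hk2 and Pfkfb3, but not Pfkl or Gpi1). It was in 2 of the 4 that were not called (Pfkm and Pfkfb2). Pfkp, which also fell, had no window, and whether the letters go with the response was not tested. TGACG or CGTCA, the half-site of the cAMP response element, was in 4 of the 9 windows (17.8% of all windows), those of Hk2, Pfkfb2, Pfkfb3 and Pfkfb4. GGAATG or CATTCC, the letters bound by TEAD factors, the DNA-binding partners of TAZ, was in 0 of the 9 (12.6% of all windows). A match in these windows describes letters only.

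The TAZ siRNA lowered 6 of the 10 genes with vehicle and the same 6 with dDAVP, and raised none. These were Slc2a1, Hk2, Gpi1, Pfkl, Pfkp and Pfkfb3, so that each step from glucose entry to the phosphofructokinase reaction lost message of at least 1 of its genes. Hk1, Pfkm, Pfkfb2 and Pfkfb4 were called in neither treatment. Calls lower made up 3.11% of all tested genes with vehicle and 4.97% with dDAVP, and calls higher 3.19% and 5.77%, where the threshold for a call is 0.05 on the p adjusted over all 15932 genes (edgeR quasi-likelihood test, Benjamini-Hochberg). The median log2 fold change of the 10 genes was -0.32 with vehicle and -0.43 with dDAVP, while that of all tested genes was 0.00 in both. The TAZ vehicle libraries lay wholly below the control vehicle ones for 7 genes, the 6 and Pfkm (11.5% of all tested genes), and the same was so with dDAVP for 7, the 6 and Pfkfb4 (13.8%). The 2 comparisons share no library.

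dDAVP raised 5 of the 10 genes in cells with the control siRNA: Hk2, Gpi1, Pfkl, Pfkp (in counts, with the mean TPM lower) and Pfkfb2. It raised 1, Hk2, in cells with the TAZ siRNA, and lowered none in either. Calls higher made up 9.72% of all tested genes with the control siRNA and 6.38% with the TAZ siRNA, and calls lower 9.48% and 4.41%. Libraries with dDAVP lay wholly above those with vehicle for 6 genes with the control siRNA (17.3% of all tested genes) and for 4 with the TAZ siRNA (13.7%), where 1, Pfkfb4, lay wholly below (12.6%). The medians of the 10 genes were 0.19 and 0.12 on the log2 scale, against 0.00 for all tested genes in both. The responses with the 2 siRNAs were not shown to differ, as given below for the test of the difference. Of the 5 genes that dDAVP raised, 4 (Hk2, Gpi1, Pfkl and Pfkp) were among the 6 that the TAZ siRNA lowered; these 2 comparisons share the control vehicle libraries.

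**Figure D1:**
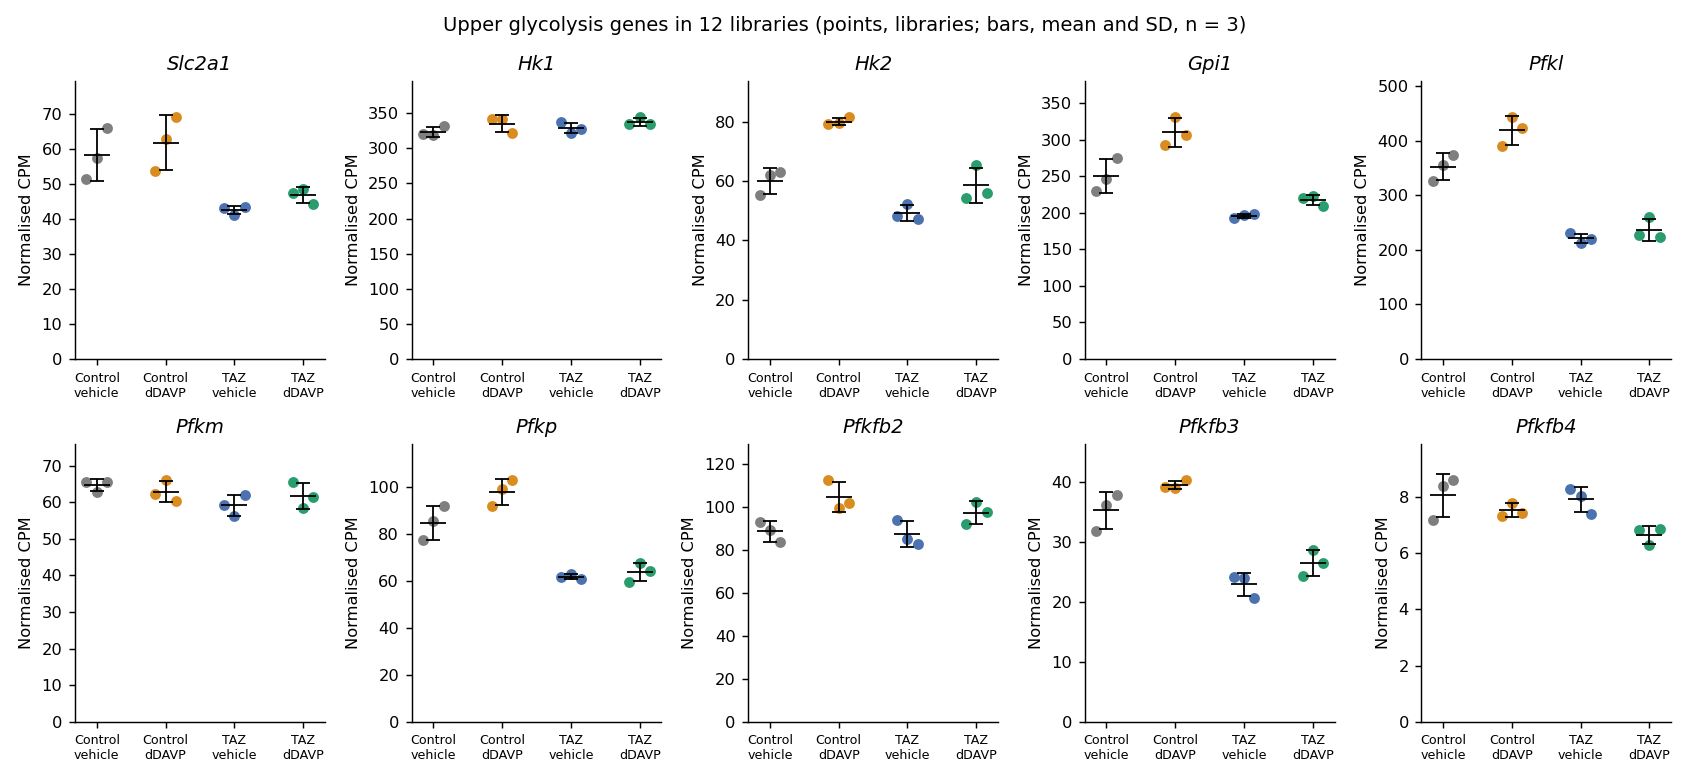
Normalised CPM (vertical axis, from 0) of each of the 10 genes in the 12 libraries by group; points are libraries and bars the mean and SD (n = 3). The 6 libraries with TAZ siRNA lie below the 6 with control siRNA for Slc2a1, Gpi1, Pfkl, Pfkp and Pfkfb3, and the 12 libraries of Hk1 lie between 319 and 344 CPM.

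Slc2a1 stood at 51.6, 57.4 and 66.2 CPM in control vehicle and 53.7, 63.0 and 69.2 in control dDAVP, a wide spread in both. It stood at 43.1, 41.3 and 43.5 CPM with TAZ siRNA and vehicle and 47.6, 48.7 and 44.3 with dDAVP. Every TAZ siRNA library was below every control siRNA library. The log2 fold changes with the TAZ siRNA were -0.45 ± 0.09 (SE; adjusted p = 0.00641) with vehicle and -0.40 ± 0.09 (adjusted p = 0.00791) with dDAVP. The responses of Slc2a1 to dDAVP were 0.08 ± 0.09 and 0.14 ± 0.09 with the control and TAZ siRNA (adjusted p = 0.577 and 0.389), although the 3 TAZ dDAVP libraries were above the 3 TAZ vehicle libraries. Slc2a1 lies at chr4:119108745-119137330 (GRCm38).

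Among the other glucose carriers, 7 of 13 genes passed the filter and none was called with the TAZ siRNA in either treatment (0 at an unadjusted p under 0.05, and 0 by DESeq2 and by limma-voom). One carrier was called for dDAVP: Slc2a4, the insulin-responsive GLUT4, fell by 0.65 ± 0.15 on the log2 scale with the control siRNA (adjusted p = 0.00485) from a low level of 2.59 CPM in control vehicle, and changed by -0.42 ± 0.15 with the TAZ siRNA (adjusted p = 0.0898). None of the 7 was called higher with dDAVP.

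The hexokinases split. Hk1 (chr10:62268855-62379920) read 320, 319 and 331 CPM in control vehicle, 342, 341 and 321 in control dDAVP, 337, 322 and 328 in TAZ vehicle and 334, 344 and 335 in TAZ dDAVP. The TAZ dDAVP libraries lay wholly above the control vehicle ones, a pair that is not among the 4 comparisons. Within each of those comparisons the groups of Hk1 overlapped. Its 95% intervals on the log2 scale ran from -0.04 to 0.09 for the TAZ siRNA with vehicle, -0.06 to 0.08 for the TAZ siRNA with dDAVP, -0.02 to 0.12 for dDAVP with control siRNA and -0.03 to 0.10 for dDAVP with TAZ siRNA, so changes of Hk1 beyond those bounds lie outside these intervals.

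Hk2 (chr6:82725025-82774454), the inducible form, moved with both treatments. It stood at 55.1, 62.1 and 63.0 CPM in control vehicle and 79.1, 79.5 and 81.5 in control dDAVP, 3 closely spaced libraries above all others. In TAZ vehicle it was 48.3, 52.2 and 47.0 CPM and in TAZ dDAVP 54.3, 65.4 and 55.9, so that the TAZ dDAVP libraries spread around the range of the control vehicle ones. dDAVP raised Hk2 by 0.41 ± 0.06 on the log2 scale with the control siRNA (1.33-fold, adjusted p = 0.000154). The rise with the TAZ siRNA was 0.25 ± 0.06 (1.19-fold, adjusted p = 0.0175), and this call was lost without any 1 of 3 libraries: TAZ vehicle replicate 1 (adjusted p = 0.0522) or 3 (0.0649), or TAZ dDAVP replicate 2 (0.093, with a fold change of 0.16). The TAZ siRNA lowered Hk2 too, by log2 fold changes of -0.45 ± 0.06 with dDAVP (adjusted p = 0.000198) and -0.29 ± 0.06 with vehicle (adjusted p = 0.0123), the second lost without control vehicle replicate 3 (adjusted p = 0.0587) or TAZ vehicle replicate 3 (0.0542).

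Per transcript length, Hk2 made up 12.3% ± 0.7 (SD, n = 3) of the summed Hk1 and Hk2 level in control vehicle, 15.2% ± 0.7 in control dDAVP, 10.2% ± 0.7 in TAZ vehicle and 11.5% ± 0.9 in TAZ dDAVP. The sum itself moved little, from 240 TPM in control vehicle to 249 in control dDAVP, 240 in TAZ vehicle and 245 in TAZ dDAVP. Hk1 therefore supplied most hexokinase message in every group. Hk3 had 0 counts in all 12 libraries, and the group means of Hkdc1 did not exceed 0.321 CPM. Of the 8 tested genes among 11 in the list of other hexokinases and upper-step genes (with Pfkfb1, Tigar, Fbp2, G6pc3 and Slc37a4), none was called in any of the 4 comparisons by edgeR, DESeq2 or limma-voom. At an unadjusted p under 0.05 there were 2 for dDAVP with control siRNA, 0 with TAZ siRNA, and 2 for the TAZ siRNA in each treatment.

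Gpi1 (chr7:34201327-34230336), which links the hexokinase and phosphofructokinase reactions and has 1 transcript model in the table, stood at 229, 246 and 275 CPM in control vehicle and 292, 330.4 and 306 in control dDAVP. TAZ siRNA libraries had 193, 197 and 198 CPM with vehicle and 220.3, 223 and 209.8 with dDAVP. The 4 groups of Gpi1 did not overlap. dDAVP raised it by 0.31 ± 0.05 with the control siRNA (adjusted p = 0.000512) and the TAZ siRNA lowered it, with log2 fold changes of -0.35 ± 0.05 with vehicle (adjusted p = 0.000984) and -0.51 ± 0.05 with dDAVP (adjusted p = 1.75e-05). Its response to dDAVP in TAZ siRNA cells was 0.15 ± 0.05 (adjusted p = 0.0859), not called here but called by DESeq2 (adjusted p = 0.0444) and in a fit of the TAZ siRNA libraries alone (0.0202).

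**Figure D2:**
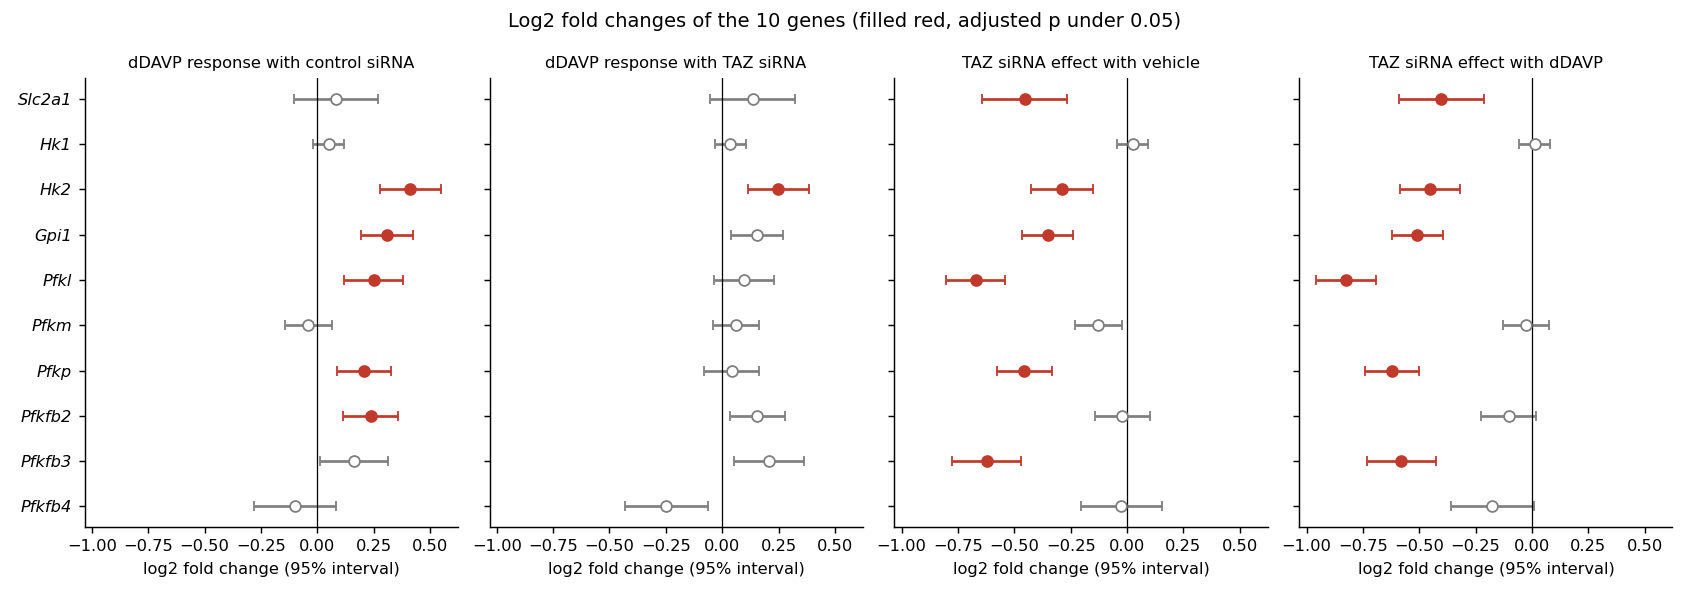
Log2 fold changes of the 10 genes (horizontal axis) in the 4 comparisons, with 95% intervals from the edgeR fit on 12 libraries; filled red points passed an adjusted p under 0.05. The TAZ siRNA panels hold 6 filled points each, all below 0, from -0.82 (Pfkl with dDAVP) to -0.29 (Hk2 with vehicle), and the dDAVP panels hold 5 and 1, all above 0.

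Pfkl (chr10:77986947-78009807), the liver-type subunit, had the largest fall of the 10 genes. It stood at 326, 356 and 374 CPM in control vehicle and 391, 443 and 423 in control dDAVP. Cells with the TAZ siRNA had 230.0, 213 and 221 CPM with vehicle and 227, 259.9 and 223 with dDAVP, all 6 libraries far below the other 6. The log2 fold change with the TAZ siRNA was -0.67 ± 0.06 with vehicle (to 0.628 of the control level, adjusted p = 2.48e-05) and -0.82 ± 0.06 with dDAVP (to 0.565, adjusted p = 2.31e-06). dDAVP raised Pfkl by 0.25 ± 0.06 with the control siRNA (adjusted p = 0.0091). In TAZ siRNA cells the value was 0.10 ± 0.06 (adjusted p = 0.375), and the groups overlapped.

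Pfkp (chr13:6579874-6649060), the platelet-type subunit, had the same order of groups: 77.5, 85.5 and 92.0 CPM in control vehicle, 92.1, 99.3 and 103 in control dDAVP, 61.8, 63.0 and 61.0 in TAZ vehicle and 59.8, 67.7 and 64.1 in TAZ dDAVP. The lowest control dDAVP library was 0.1 CPM above the highest control vehicle one, while the control and TAZ siRNA libraries stood well apart. The TAZ siRNA lowered Pfkp, with log2 fold changes of -0.46 ± 0.06 (adjusted p = 0.000252) with vehicle and -0.62 ± 0.06 (adjusted p = 5.8e-06) with dDAVP. Its rise in counts with dDAVP in control siRNA cells, 0.21 ± 0.06 (adjusted p = 0.015), turned direction on the authors' per-length scale, where the means were 36.9 TPM in control vehicle and 33.5 in control dDAVP and the libraries overlapped. The call was also lost without control vehicle replicate 1 (adjusted p = 0.0949), control dDAVP replicate 2 (0.0583) or control dDAVP replicate 3 (0.0881). Its response to dDAVP in TAZ siRNA cells was 0.04 ± 0.06 (adjusted p = 0.723).

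Pfkm (chr15:98092589-98132447), the muscle-type subunit, stood apart from both. It was at 65.6, 62.7 and 65.7 CPM in control vehicle, 62.3, 66.1 and 60.4 in control dDAVP, 59.3, 56.3 and 62.1 in TAZ vehicle and 65.5, 58.4 and 61.3 in TAZ dDAVP. The TAZ vehicle libraries were all below the control vehicle ones, by a small margin that did not pass the test (-0.13 ± 0.05, 95% interval -0.23 to -0.02, adjusted p = 0.141). With dDAVP the effect of the siRNA was -0.03 ± 0.05 (interval -0.13 to 0.08, adjusted p = 0.796). Its responses to dDAVP were -0.04 ± 0.05 and 0.06 ± 0.05 (adjusted p = 0.65 and 0.494).

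The make-up of the phosphofructokinase message followed from this. Ratios between isoenzymes were compared with exact two-sided permutation tests within treatment or within siRNA, which can give no p below 0.005. Each change given is the mean over both treatments or both siRNAs. They were chosen after the data were seen, and 14 were run. The log2 ratio of Pfkl to Pfkm was 2.44 ± 0.11 (SD, n = 3) in control vehicle and 2.73 ± 0.08 in control dDAVP, and 1.90 ± 0.06 in TAZ vehicle and 1.94 ± 0.19 in TAZ dDAVP. It fell by 0.67 ± 0.07 (SE) with the TAZ siRNA (exact permutation p = 0.005, adjusted over the 14 tests 0.00875). The ratio of Pfkp to Pfkm changed by -0.46 ± 0.08 and that of Pfkl to Pfkp by -0.21 ± 0.04 (both exact permutation p = 0.005, adjusted 0.00875), so the 3 subunits differed in the order Pfkl, Pfkp, Pfkm. The last of these rests on CPM: with TPM in its place the ratio of Pfkl to Pfkp changed by -0.17 (adjusted p = 0.182 by the exact permutation test). For dDAVP the ratio of Pfkl to Pfkm changed by 0.16 ± 0.07 (exact permutation p = 0.065, adjusted 0.091), which became 0.20 (adjusted 0.035) without TAZ dDAVP replicate 1. Neither Pfkp to Pfkm (0.12 ± 0.08) nor Pfkl to Pfkp (0.05 ± 0.04) passed (both exact permutation p = 0.2, adjusted 0.233). With the control and TAZ siRNA apart, the dDAVP change was 0.29 and 0.03 for Pfkl to Pfkm. It was 0.25 and -0.02 for Pfkp to Pfkm, and 0.04 and 0.05 for Pfkl to Pfkp.

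**Figure D3:**
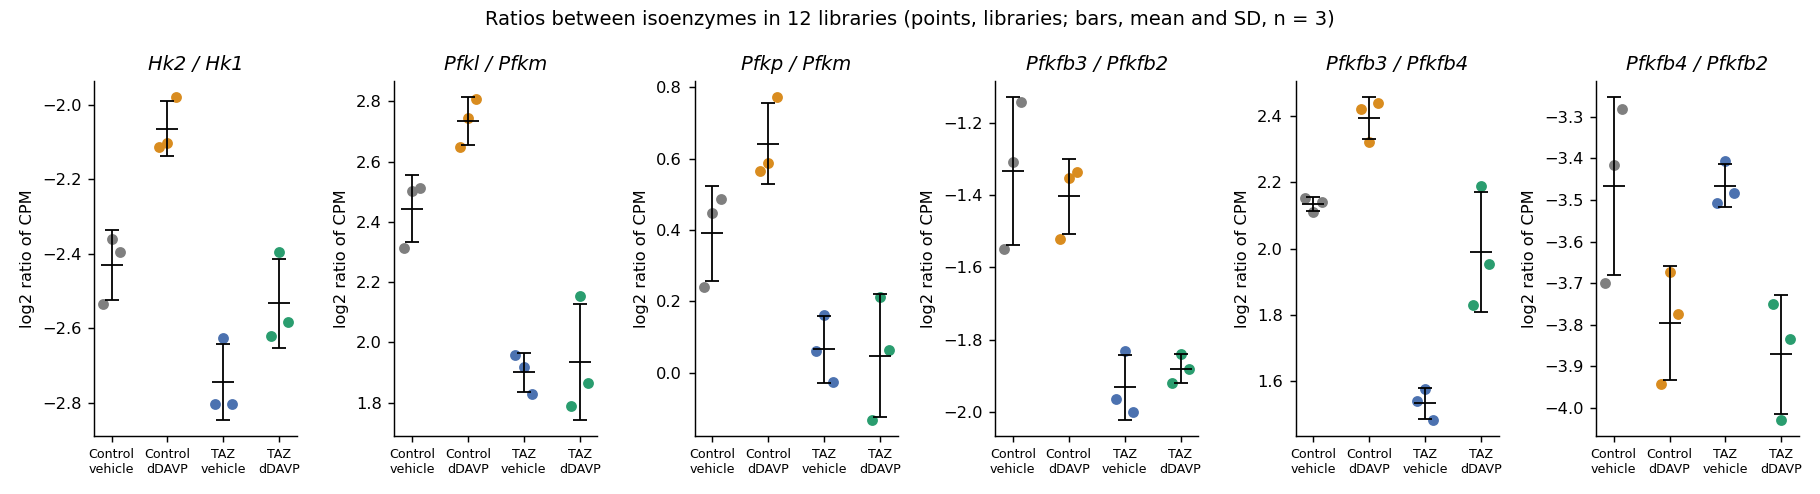
Log2 ratios of normalised CPM between isoenzymes (vertical axis, not starting at 0) in the 12 libraries by group; points are libraries and bars the mean and SD (n = 3). The Pfkl to Pfkm ratio is 2.31 or more in the 6 control siRNA libraries and 2.15 or less in the 6 with TAZ siRNA, while the Pfkfb4 to Pfkfb2 ratio separates vehicle from dDAVP only in part.

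In TPM, the summed level of the 3 subunits was 352 ± 22.2 (SD, n = 3) in control vehicle, 379 ± 17.3 in control dDAVP, 239 ± 8.88 in TAZ vehicle and 250.3 ± 17.6 in TAZ dDAVP. Pfkl supplied 72.2% ± 0.8, 76.1% ± 0.8, 67.0% ± 0.2 and 67.0% ± 2.2 of it in that order, Pfkm 17.3%, 15.1%, 23.5% and 23.0%, and Pfkp 10.5%, 8.84%, 9.53% and 10.1%. The share of Pfkp depends on which transcript its counts were given to. Between 58.6% and 92.7% of the Pfkp counts of a library were assigned to 4 non-coding models of up to 10431 bases rather than to the 3 coding models, of which NM_019703, with 4033 bases, held the most counts among the coding ones on average in each group. A longer model gives fewer TPM per count, and the level of Pfkp in TPM was lower in control dDAVP than in control vehicle while its CPM was higher. With the length of NM_019703 alone, Pfkp supplied 15.3%, 15.4%, 16.2% and 15.7%, and Pfkl 68.4%, 70.8%, 62.3% and 62.9%, so that Pfkl remained the main subunit and its share was lower with the TAZ siRNA on either scale. The assignment of counts to models of Pfkp varied between libraries of a group too, since the model XR_001780793 held 20.4% to 54.4% of them in control vehicle and 77.6% to 82.2% in control dDAVP.

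**Figure D4:**
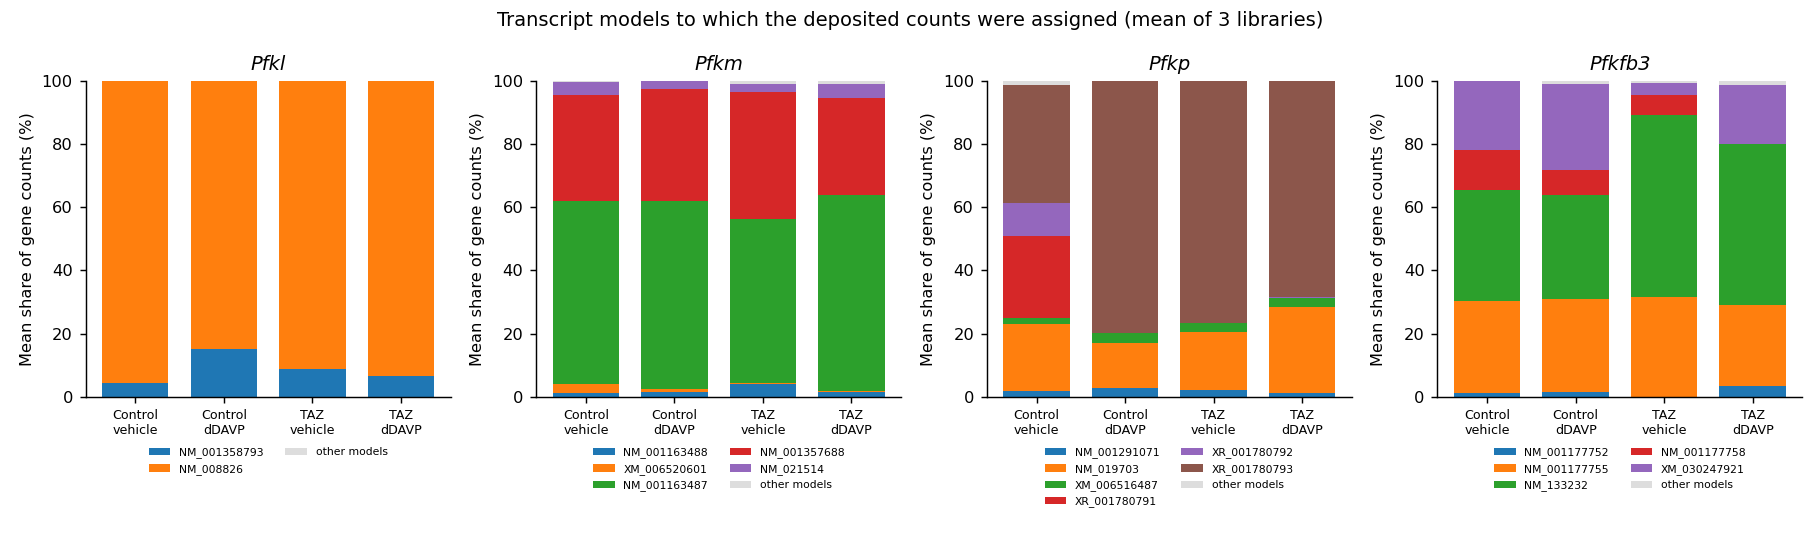
Mean share of a gene's deposited counts assigned to each RefSeq transcript model (vertical axis, percent, mean of 3 libraries per group) for Pfkl, Pfkm, Pfkp and Pfkfb3. NM_008826 holds 84.8% to 95.7% of the Pfkl counts, and non-coding models (XR) hold 68.6% to 79.8% of the Pfkp counts.

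Other members rested on fewer doubts of that kind. The main model held 87.7% to 99.4% of the counts of Slc2a1, 88.6% to 99.1% for Hk1, 90.1% to 99.5% for Hk2 and 74.1% to 99.96% for Pfkl. The counts of Pfkm were divided between NM_001163487 (35.2% to 80.5%) and the near equal NM_001357688. Those of Pfkfb3 were divided over 14 models: NM_133232 held 35.3% ± 10.7 (SD, n = 3) in control vehicle, 32.7% ± 9.8 in control dDAVP, 57.7% ± 21.5 in TAZ vehicle and 51.0% ± 17.3 in TAZ dDAVP, ranges that overlapped between all groups. The fall of Pfkfb3 described next is that of the gene as a whole.

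Pfkfb3 (chr2:11471430-11554071), the PFKFB form with the most one-sided kinase activity, stood at 31.9, 36.2 and 37.9 CPM in control vehicle and 39.3, 39.0 and 40.4 in control dDAVP. Libraries with the TAZ siRNA read 24.1, 24.0 and 20.7 CPM with vehicle and 24.3, 28.6 and 26.5 with dDAVP. Every library with TAZ siRNA was below every library with control siRNA. The log2 fold changes were -0.62 ± 0.07 with vehicle (adjusted p = 0.000113) and -0.58 ± 0.07 with dDAVP (adjusted p = 5.83e-05). With dDAVP all 3 libraries of Pfkfb3 were above the vehicle ones under both siRNAs, by 0.16 ± 0.07 (adjusted p = 0.129) and 0.21 ± 0.07 (adjusted p = 0.0865), neither of them called. The first passed when only the control siRNA libraries were fitted (adjusted p = 0.0487), and the second without TAZ dDAVP replicate 1 (0.0481).

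Pfkfb2 (chr1:130689043-130729253), the heart-type form, answered dDAVP and was not called for the TAZ siRNA. It was at 93.3, 89.6 and 83.7 CPM in control vehicle, 113, 99.5 and 102 in control dDAVP, 94.2, 85.3 and 82.9 in TAZ vehicle and 92.0, 103 and 97.9 in TAZ dDAVP. dDAVP raised it by 0.24 ± 0.06 with the control siRNA (adjusted p = 0.00745), a call lost without control dDAVP replicate 1, its highest library (adjusted p = 0.0576). The response of Pfkfb2 in TAZ siRNA cells was 0.16 ± 0.06 (adjusted p = 0.1), and it passed without TAZ vehicle replicate 1 (0.21, adjusted p = 0.0268). The effect of the TAZ siRNA was -0.02 ± 0.06 with vehicle (95% interval -0.14 to 0.10) and -0.10 ± 0.06 with dDAVP (interval -0.22 to 0.02), with adjusted p = 0.886 and 0.292.

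Pfkfb4 (chr9:108988272-109032236), a further HIF-responsive form, was the scarcest of the 10 genes. It was at 7.18, 8.39 and 8.60 CPM in control vehicle, 7.33, 7.80 and 7.45 in control dDAVP, 8.29, 8.04 and 7.41 in TAZ vehicle and 6.83, 6.29 and 6.86 in TAZ dDAVP. The TAZ dDAVP libraries were the lowest 3 of the 12. No comparison of Pfkfb4 was called: the response to dDAVP was -0.10 ± 0.09 (adjusted p = 0.5) and -0.25 ± 0.09 (adjusted p = 0.0813) with the control and TAZ siRNA, and the effect of the TAZ siRNA was -0.03 ± 0.09 (interval -0.21 to 0.16, adjusted p = 0.917) and -0.18 ± 0.09 (interval -0.36 to 0.01, adjusted p = 0.233) with vehicle and dDAVP.

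Within the PFKFB family the ratio of Pfkfb3 to Pfkfb2 changed by -0.54 ± 0.07 (SE, log2) with the TAZ siRNA and that of Pfkfb3 to Pfkfb4 by -0.50 ± 0.06 (both exact permutation p = 0.005, adjusted 0.00875). The ratio of Pfkfb4 to Pfkfb2 changed by -0.04 ± 0.09 (exact permutation p = 0.665, adjusted 0.716). dDAVP moved the family differently: Pfkfb3 to Pfkfb4 rose by 0.36 ± 0.06 (exact permutation p = 0.005, adjusted 0.00875) and Pfkfb4 to Pfkfb2 fell by 0.37 ± 0.09 (exact permutation p = 0.01, adjusted 0.0156), while Pfkfb3 to Pfkfb2 changed by -0.01 ± 0.07 (exact permutation p = 0.89). In TPM, Pfkfb3 made up 30.6% ± 2.8, 30.3% ± 1.4, 22.4% ± 1.1 and 23.9% ± 0.6 (SD, n = 3) of the 3 genes in control vehicle, control dDAVP, TAZ vehicle and TAZ dDAVP. Pfkfb2 was the main form in every group, at 59.6%, 61.4%, 66.9% and 67.9%. In the hexokinase pair, the ratio of Hk2 to Hk1 changed by -0.39 ± 0.06 with the TAZ siRNA and by 0.29 ± 0.06 with dDAVP (both exact permutation p = 0.005, adjusted 0.00875).

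By level per transcript length, the order in control vehicle was Pfkl (254 TPM), Gpi1 (234), Hk1 (211), Slc2a1 (61.6), Pfkm (60.8), Pfkfb2 (37.6), Pfkp (36.9), Hk2 (29.6), Pfkfb3 (19.4) and Pfkfb4 (6.18). The neighbours Pfkl and Gpi1, Slc2a1 and Pfkm, and Pfkfb2 and Pfkp overlapped between libraries, and the place of Pfkp carries the uncertainty of its models. In control dDAVP, Pfkl (289 TPM) and Gpi1 (279) overlapped at the top, as did Slc2a1 and Pfkm below them, and Hk2 (37.9) stood above Pfkp (33.5). With the TAZ siRNA the order at the top differed: Hk1 was first at 216 TPM with vehicle and 217 with dDAVP, ahead of Gpi1 (184 and 201) and Pfkl (160.1 and 168), with no overlap between these neighbours. Pfkm (56.2 and 57.2 TPM) then stood above Slc2a1 (45.2 and 48.6), followed by Pfkfb2, Hk2, Pfkp, Pfkfb3 and Pfkfb4, among which Hk2 and Pfkp overlapped.

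The difference between the dDAVP responses with the 2 siRNAs was tested directly. None of the 10 genes passed (0 by edgeR, DESeq2 and limma-voom, and 0 at an unadjusted p under 0.05), where 0.0314% of all tested genes, 5 in number, did. The estimates ran from -0.17 (Pfkp, 95% interval -0.34 to 0.01) to 0.10 (Pfkm, interval -0.04 to 0.25). For Hk2 the difference was -0.16 (interval -0.36 to 0.03), for Gpi1 -0.16 (interval -0.32 to 0.01) and for Pfkl -0.15 (interval -0.34 to 0.03). Pfkl, Pfkp and Gpi1 were called for dDAVP with the control siRNA and not with the TAZ siRNA, and these intervals include both no difference and a response smaller by the whole of the value seen with the control siRNA.

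The later steps of glycolysis moved in the same directions. Of 17 genes from aldolase to lactate export, 13 were tested. With the TAZ siRNA 9 were lower with vehicle and 10 with dDAVP (3.11% and 4.97% of all tested genes), and none was higher. dDAVP raised 10 of the 13 (9.72% of all tested genes) and lowered 1 (9.48%) with the control siRNA. With the TAZ siRNA it raised 2 (6.38%) and lowered 1 (4.41%). For the difference between these responses 0 of the 13 were called by edgeR, DESeq2 or limma-voom, and 9 had an unadjusted edgeR p under 0.05. Ldha (lactate dehydrogenase A) rose by 0.59 ± 0.06 (adjusted p = 7.75e-07) with dDAVP and control siRNA, and fell by 0.58 ± 0.06 (adjusted p = 2.48e-05) and by 0.84 ± 0.06 (adjusted p = 4.84e-07) with the TAZ siRNA with vehicle and dDAVP. Aldoa (aldolase A) rose by 0.47 ± 0.06 and fell by 0.52 ± 0.06 and by 0.75 ± 0.06, and Pgk1 (phosphoglycerate kinase) rose by 0.33 ± 0.07 and fell by 0.60 ± 0.07 and by 0.84 ± 0.07, in the same comparisons. Pklr, a pyruvate kinase gene, was the one that fell with dDAVP (by 0.29 ± 0.05 with the control and by 0.27 ± 0.05 with the TAZ siRNA) and was not called for the TAZ siRNA (0.12 ± 0.05 and 0.15 ± 0.05).

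**Figure D5:**
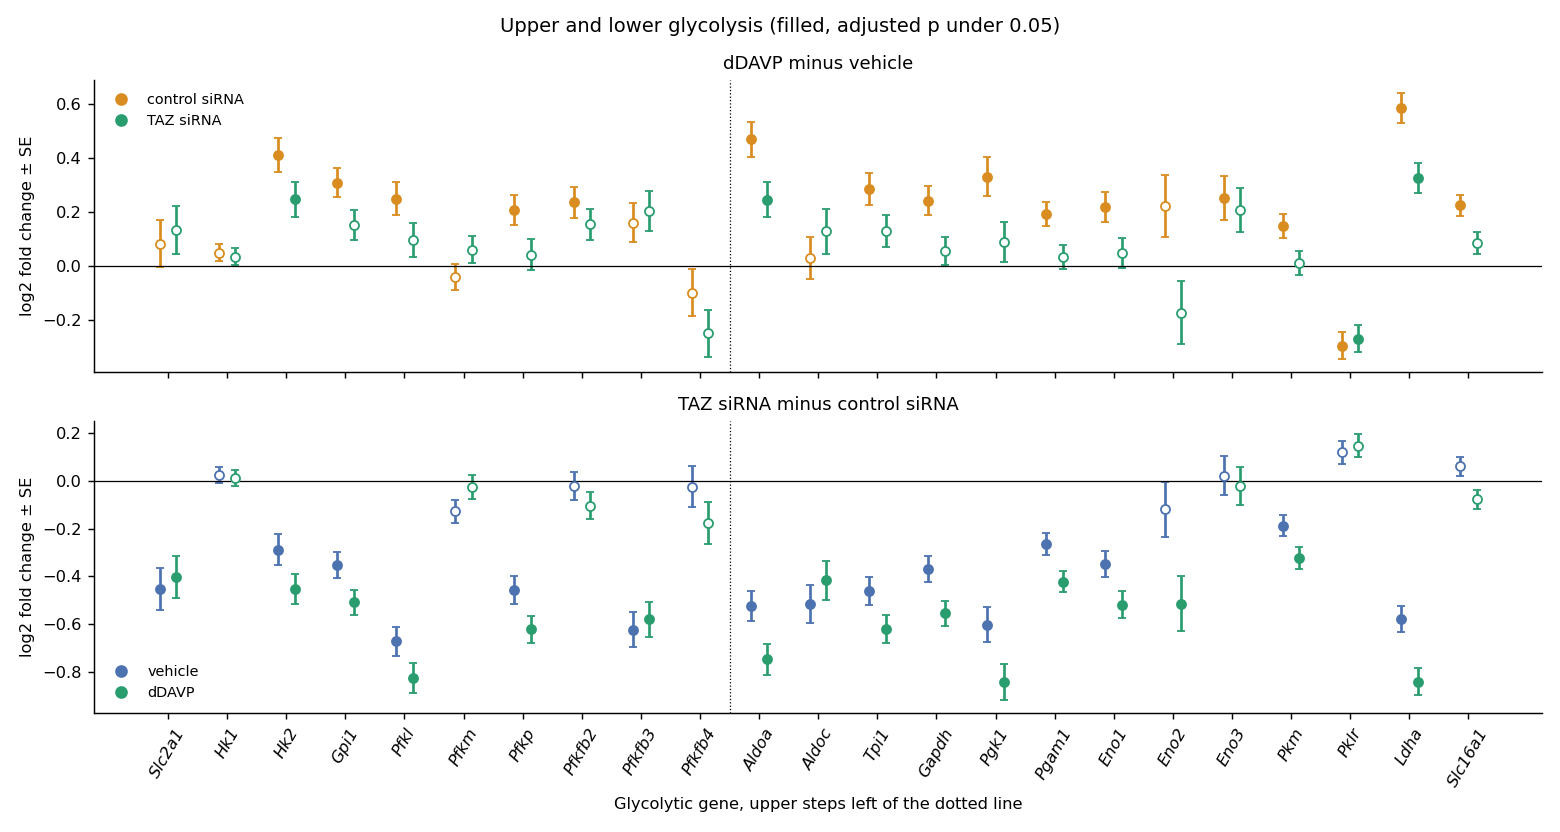
Log2 fold changes ± SE (vertical axis) of the 10 upper genes, left of the dotted line, and the 13 tested genes from aldolase to lactate export, right of it; the upper panel gives dDAVP minus vehicle and the lower panel TAZ siRNA minus control siRNA, with filled points at an adjusted p under 0.05. With the TAZ siRNA no filled point lies above 0 on either side of the line, and the points of Hk1, Pfkm, Pfkfb2 and Pfkfb4 are unfilled in the lower panel.

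The next lists hold pathways that branch from the upper steps. All 7 genes of the pentose phosphate pathway, which starts from glucose 6-phosphate, were tested, and 5 rose with dDAVP with control siRNA and 3 with TAZ siRNA. For the difference between these responses 0 of the 7 were called, and 1 had an unadjusted edgeR p under 0.05. None of the 7 was called for the TAZ siRNA (at an unadjusted p under 0.05, 0 with vehicle and 1 with dDAVP, and 0 by DESeq2 and limma-voom). Pgd (6-phosphogluconate dehydrogenase) rose by 0.37 ± 0.04 (adjusted p = 1.93e-06) and G6pdx (glucose 6-phosphate dehydrogenase) by 0.35 ± 0.05 (adjusted p = 2.54e-05) with the control siRNA, Pgls by 0.20 ± 0.05 and Taldo1 by 0.17 ± 0.05. The TAZ siRNA values of Pgd were 0.06 ± 0.04 and -0.09 ± 0.04, and those of G6pdx -0.01 ± 0.05 and -0.06 ± 0.04. In the hexosamine pathway, which starts from fructose 6-phosphate, 1 of 4 tested genes, Uap1, rose with dDAVP (DESeq2 called 2, limma-voom 1, with the control siRNA), by 0.40 ± 0.04 with the control and 0.26 ± 0.04 with the TAZ siRNA. With the TAZ siRNA 0 of the 4 were called in either treatment (at an unadjusted p under 0.05, 0 with vehicle and 1 with dDAVP; DESeq2 called 0 and 1, limma-voom 0 and 0).

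Of 9 tested genes of glycogen turnover, 5 rose with dDAVP with the control siRNA and 1 with the TAZ siRNA, while 1 fell with the TAZ siRNA with vehicle (3 called by DESeq2, 2 by limma-voom and 5 at an unadjusted p under 0.05) and 5 with dDAVP (5 by DESeq2 and limma-voom). The difference between the dDAVP responses with the control and TAZ siRNA was called for 0 of the 9 (1 at an unadjusted edgeR p under 0.05). Pgm2 (a phosphoglucomutase) rose by 0.22 ± 0.07 with dDAVP and control siRNA and fell by 0.48 ± 0.07 and by 0.59 ± 0.07 with the TAZ siRNA. Gbe1 (glycogen branching enzyme) rose by 0.37 ± 0.05 and Pgm1 by 0.17 ± 0.06 with dDAVP and control siRNA; with the TAZ siRNA Gbe1 changed by -0.17 ± 0.05 (adjusted p = 0.0515) and fell by 0.40 ± 0.05 with vehicle and dDAVP, and Pgm1 changed by -0.16 ± 0.06 (adjusted p = 0.0968) and fell by 0.20 ± 0.06. Pygb (brain-type glycogen phosphorylase) rose with dDAVP under both siRNAs, by 0.30 ± 0.04 and 0.28 ± 0.04, and was not called for the TAZ siRNA.

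Among 14 tested genes that sense glucose or regulate glycolysis, 5 rose and 2 fell with dDAVP with the control siRNA, and 3 rose and none fell with the TAZ siRNA. With the TAZ siRNA and vehicle 2 were lower (4 called by DESeq2, 2 by limma-voom), Pdk1 (edgeR adjusted p = 0.000252) and Txnip (0.000846). With the TAZ siRNA and dDAVP 3 were lower, Pdk1 (edgeR adjusted p = 2.71e-05), Txnip (5.78e-05) and Mlx (0.0278), and 1, Pdk2, was higher (0.0104). Prkaa2 (a catalytic AMPK subunit) rose with dDAVP by 0.37 ± 0.08 and 0.39 ± 0.08 with the control and TAZ siRNA, and Mlxip (MondoA, a glucose-sensing factor that acts as a dimer with Mlx) by 0.30 ± 0.05 in both. Pdk2, a pyruvate dehydrogenase kinase, fell with dDAVP by 0.25 ± 0.04 with the control siRNA and read 0.00 ± 0.04 with the TAZ siRNA, a difference of 0.25 ± 0.06 that did not pass with edgeR (adjusted p = 0.183) or limma-voom (0.189) but passed with DESeq2 (0.0206). Pdk3 rose by 0.17 ± 0.05 with the control siRNA and changed by -0.02 ± 0.05 with the TAZ siRNA. Its difference of -0.19 ± 0.08 did not pass (edgeR adjusted p = 0.516). Of 13 tested HIF target genes that are not glycolytic, 11 fell with the TAZ siRNA with vehicle and 12 with dDAVP (3.11% and 4.97% of all tested genes). Their medians were -0.44 and -0.62, against 0.00 for all tested genes in both. The list was chosen with earlier results of these data known, and a part of HIF in these changes was not tested. The 2 that rose with dDAVP under each siRNA were Ndrg1 and Vegfa. The call of Vegfa with the TAZ siRNA (edgeR adjusted p = 0.0431) was lost with limma-voom (0.0751). Ndrg1 rose by 0.68 ± 0.06 and 0.69 ± 0.06 and fell with the TAZ siRNA by 0.41 ± 0.06 and by 0.40 ± 0.06, and Vegfa rose by 0.50 ± 0.07 and 0.23 ± 0.07 and fell by 0.35 ± 0.07 and by 0.62 ± 0.07. The difference between the dDAVP responses of Vegfa, -0.27 ± 0.10, did not pass (edgeR adjusted p = 0.458).

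The genes whose log2 CPM followed a member most closely over the 12 libraries were found by Pearson correlation, as a description of libraries that share their groups. For Hk2 they were LOC102632541 (r = 0.976), Ccl28 (0.969) and Slc28a3 (0.967). For Pfkl they were Bnip3l (r = 0.990), Bnip3 (0.986) and Pgk1 (0.983). For Pfkfb2 they were Vps13c (r = 0.961), Slc25a36 (0.960) and Ecpas (0.949). Among the 10 genes themselves, Pfkl, Pfkp and Pfkfb3 lay closest together (r = 0.965 to 0.986 over the 12 libraries), and Hk1 and Pfkl were at r = -0.03.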

How the data were processed

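RNA of 12 libraries (4 groups of 3, grouped by the sample titles) was analysed from the tables of genes and transcripts that the authors deposited. Per the file headers, the deposited values are read counts, FPKM and TPM per gene and per transcript. The authors' counts are estimated counts written as whole numbers and not normalised, and the gene counts equalled the summed transcript counts in all but 12 of 549324 values (0 for the 10 genes). The FPKM values that the authors deposited served only to check the shares. The TPM values that the authors deposited served for levels between genes. Bowtie 0.12.2 and the builds mm8 and mm10 appear in the submitters' processing notes, with no role. The counting tool, and how it divided reads among similar genes and transcript models, are not given in the sources used here. A stranded kit is among the kits of the labels: TruSeq Stranded mRNA, with another TruSeq kit beside it. Gene positions equalled RefSeq GRCm38.p6 for all 10 genes.

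Counts were fitted in R 4.3.3 with edgeR 4.0.16 (filterByExpr with a minimum count of 10, TMM factors of 0.988 to 1.01, robust quasi-likelihood, 1 mean per group over 12 libraries). P-values were adjusted by Benjamini-Hochberg over 15932 genes, and a gene was called under 0.05. The design had assumed whole read counts; the estimated counts needed no rounding and the test was kept. CPM were computed on TMM-scaled totals. SEs were computed from each fold change and the square root of its F value. DESeq2 1.42.0, limma 3.58.1 (voom), other filters, size factors, single-comparison fits, a replicate term and leaving out each library served as alternatives. The biological coefficient of variation was 5.11%. Replicates differed beyond counting noise in each pair (chi-square over degrees of freedom, 4.25 to 13.5). On simulated data for the TAZ siRNA effect with vehicle over 15932 genes, 78 of 100 genes changed 1.3-fold and 78 of 100 changed 2-fold were recovered, with 8 false calls.

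Named are the 10 genes, Wwtr1, the up to 4 called genes of each other list with the largest change in the dDAVP response with control siRNA, and the 3 genes most correlated with the most dDAVP-responsive gene of each role. The members and lists were chosen with earlier results of these data known. Hk3, Hkdc1, Pdk1, Txnip and Mlx were named, and the ratios chosen, after their values were seen.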

Additional observations from a re-analysis of the deposited data

How the results depend on the processing

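Over all alternatives, 636 of 650 fold changes of the 10 genes kept their side of the threshold, 9 lost the call and 5 gained it, and 0 called values changed direction (some values near 0 that were not called did); those 14 stand beside the genes above, and all 120 values for the TAZ siRNA with dDAVP were kept. TPM was not among these alternatives, and on that scale the called rise of Pfkp with dDAVP and control siRNA turned direction, as given above. The number of the 10 genes called for dDAVP with the TAZ siRNA became 2 with DESeq2 and 2 when only the 2 groups compared were fitted. For the difference of the dDAVP responses, the count over all genes was 5 and became 87 with DESeq2 and 12 with no low-count filter, while none of the 10 genes was called. Leaving out 1 library at a time gave 2103 to 2685 called genes for dDAVP with control siRNA, 1118 to 1752 with TAZ siRNA, 410 to 1435 for the TAZ siRNA with vehicle, 1049 to 1625 with dDAVP and 3 to 16 for the difference. The same gave 4 to 5, 0 to 2, 5 to 6, 6 to 6 and 0 to 0 of the 10 genes. Fewer libraries enter such fits. The counts that moved by over 1.5 times were, for the TAZ siRNA with vehicle, 504 and 578 without control vehicle replicates 1 and 3, and 410 and 511 without TAZ vehicle replicates 2 and 3. With dDAVP they were 1114 and 1049 without control dDAVP replicates 2 and 3, and 1054 and 1110 without TAZ dDAVP replicates 1 and 3. For dDAVP with TAZ siRNA the count was 1118 without TAZ vehicle replicate 2. For the difference, 5 became 10 without control vehicle replicate 1, control dDAVP replicate 1 or TAZ dDAVP replicate 2, 3 without control vehicle replicate 3, control dDAVP replicate 3 or TAZ dDAVP replicate 1, and 16 without TAZ vehicle replicate 1. The cause was not tested.

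With 1 coding transcript length per gene, chosen after seeing the data, the share of Pfkl became 68.4%, 70.8%, 62.3% and 62.9%, and that of Pfkfb3 32.3% in control dDAVP, 24.2% in TAZ vehicle and 25.6% in TAZ dDAVP; this alternative changes the transcript lengths alone. Of 182 ratio values under added alternatives, 180 were kept. Whether the replicate numbers shared by the groups pair the libraries was not settled. Deviations of same-numbered libraries correlated weakly, at -0.04 to 0.07. A fit with the replicate number as a block gave 2983, 1663, 968, 1690 and 6 called genes and 5, 1, 6, 6 and 0 of the 10, and changed no call of the 10 genes. In 8 of 12 cases a library correlated best with its own number, out of 3 numbers in the other group. Depth limits Pfkfb4 most, with 296 to 514 counts.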
